A study of Homo sapiens with 14 samples.

Results

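Splicing of the genes for protein phosphatase 2A (PP2A) was compared between HEK293T cells carrying WT SF3B1 and cells carrying the SF3B1-K700E mutation. HEK293T is a human embryonic kidney line. The WT group was labelled SF3B1 K700K and the mutant (MT) group SF3B1 K700E, with 3 RNA-Seq libraries each. The splice junction data listed 6 MT values per event, more than the labelled MT libraries. Inclusion levels were given for 3 of these, called MT libraries below, which could not be matched to the labelled samples. The study describes them as isogenic lines with the mutation at the endogenous locus. Neither how many clones stand behind a genotype nor whether the libraries came from separate cultures is given in the sources used here, so p-values measure only the spread between libraries, which may be technical. K700E is a single amino acid change, and the table of splice junctions holds no value that checks it.

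The members were every splice event listed for 10 genes with a mean of at least 10 junction reads: PPP2R5A, PPP2R5B, PPP2R5C, PPP2R5D, PPP2R5E, PPP2R2A, PPP2R1A, PPP2R1B, PPP2CA and PPP2CB. The rule left 87 events of the 94061 in the table that met the same minimum, from 96 listed before it. Of these 87, 64 were cassette exons, 15 pairs of mutually exclusive exons, 3 alternative 3′ splice sites, 2 alternative 5′ splice sites and 3 retained introns. They covered 78 distinct alternative regions, because some exons are listed more than once with different flanking exons, and events of a gene that share a junction share reads. In 10 events the level was the same in all 6 libraries, which left 77 to test.

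PP2A is a serine/threonine phosphatase built from a catalytic C subunit (PPP2CA, PPP2CB), a scaffold A subunit (PPP2R1A, PPP2R1B) and an exchangeable regulatory B subunit that chooses its targets. The B56 family of regulatory subunits (PPP2R5A to PPP2R5E, encoding B56α, β, γ, δ and ε) binds partners through a short linear motif and is brought to centromeres by shugoshin and to kinetochores by BUBR1. PPP2R2A encodes a B55 subunit, which acts in mitotic exit. SF3B1 is the U2 snRNP protein that holds the branch site, and K700E forms are known for using AG dinucleotides a short way upstream of the usual 3′ splice site.

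For the 3 coding cassette exons of PPP2R5A, and for the exons of PPP2R5D and PPP2R5E with the lowest p-values among the members, the 3′ splice sites are shown because this is where SF3B1 acts. Each line gives the last 60 intron bases and the first 10 exon bases, 5′ to 3′ on the gene's strand in GRCh38, with the AG before the exon in capitals.
PPP2R5A 197-nt exon, chr1:212329135-212329331, plus strand: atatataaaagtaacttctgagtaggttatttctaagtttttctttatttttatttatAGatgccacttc
PPP2R5A 93-nt exon, chr1:212342188-212342280, plus strand: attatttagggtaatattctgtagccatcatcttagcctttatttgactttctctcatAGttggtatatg
PPP2R5A 54-nt exon, chr1:212349189-212349242, plus strand: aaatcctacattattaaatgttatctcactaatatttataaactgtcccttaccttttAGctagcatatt
PPP2R5D 54-nt exon, chr6:43008693-43008746, plus strand: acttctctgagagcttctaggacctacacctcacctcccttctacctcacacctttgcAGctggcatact
PPP2R5E 197-nt exon, chr14:63453689-63453885, minus strand: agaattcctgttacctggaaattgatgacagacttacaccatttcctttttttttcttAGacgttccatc

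Counted back from the splice site, the nearest further AG stood 23 bases before the PPP2R5A 197-nt exon and 24 bases before its 93-nt exon. No further AG lay within the 60 bases before the PPP2R5A 54-nt exon. That distance was 40 bases in PPP2R5D and 29 bases in PPP2R5E. Over the 55 distinct cassette exons of the 10 genes, every site followed an AG, and 27 (49.1%) had another AG 10 to 30 bases upstream, beside 45.3% of 51245 cassette exons in the whole table. A median of 75% of the 20 bases before the AG were pyrimidines in both sets.

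Some exons of the B56 genes are equal in length but not always alike in sequence. Identity was 22.5% for the 102-nt exons of PPP2R5C and PPP2R5E, and 53.0% for the 117-nt exons of PPP2R5C and PPP2R5D. PPP2R5A and PPP2R5D both hold a 54-nt exon, identical at 75.9% of its bases, and PPP2R5A and PPP2R5E both hold a 197-nt exon, identical at 58.9%. These pairs are shown because they include the member events with the lowest p-values and the largest difference, and capitals in the second line of each pair mark the bases that differ from PPP2R5A.
PPP2R5A 54-nt exon: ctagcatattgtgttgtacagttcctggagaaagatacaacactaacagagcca
PPP2R5D 54-nt exon: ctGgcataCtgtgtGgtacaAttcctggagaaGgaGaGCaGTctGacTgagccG
PPP2R5A 197-nt exon: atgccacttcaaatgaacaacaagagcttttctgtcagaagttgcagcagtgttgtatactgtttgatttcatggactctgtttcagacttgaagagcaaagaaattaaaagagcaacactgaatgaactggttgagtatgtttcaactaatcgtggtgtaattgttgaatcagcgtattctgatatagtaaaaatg
PPP2R5E 197-nt exon: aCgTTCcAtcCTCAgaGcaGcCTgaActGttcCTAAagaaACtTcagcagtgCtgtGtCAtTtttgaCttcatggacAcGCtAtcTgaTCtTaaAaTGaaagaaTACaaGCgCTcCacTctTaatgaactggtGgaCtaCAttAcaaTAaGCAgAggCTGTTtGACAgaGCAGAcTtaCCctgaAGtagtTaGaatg

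No member event passed the test between SF3B1-MT and WT. An event was called when the adjusted p of limma, fitted over all 83581 events with levels that varied, was below 0.05 and the mean inclusion levels differed by more than 0.1. The inclusion level is the fraction of transcripts, estimated from junction reads, that carry the alternative sequence. For mutually exclusive exons it is the share of 1 exon of the pair against the other. By this rule 26 events of the whole table were called (0.0311%), 11 higher and 15 lower in MT, and 0 of the 77 member events. The lowest adjusted p among the members was 0.642. At an unadjusted p below 0.05 there were 2 member events (2.6%), beside 4.47% of all events.

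Differences among the members were small. The median absolute difference in inclusion level was 0.00933 over the 77 events and 0.0137 over all events tested, and the signed median was -0.00167 beside -0.002. In MT, 31 member events were higher and 46 lower. A difference above 0.1 was seen in 1 member event (1.3%) against 5.8% of all events. Among cassette exons alone the shares were 1.82% and 4.71%. Member events had more reads, a median of 151.5 against 82.4 over all events tested, and how far depth accounts for these shares was not tested. WT and MT libraries did not overlap in 3 member events (3.9%), beside 5.46% of all events, and in none of these 3 did the means differ by more than 0.1, beside 1.73%. For 56 of the 77 events (72.7%) the 95% interval of the difference lay within 0.1 of 0, beside 62.3% of all events. Differences above 0.1 in the other 21 events are not excluded by their intervals.

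**Figure D1:**
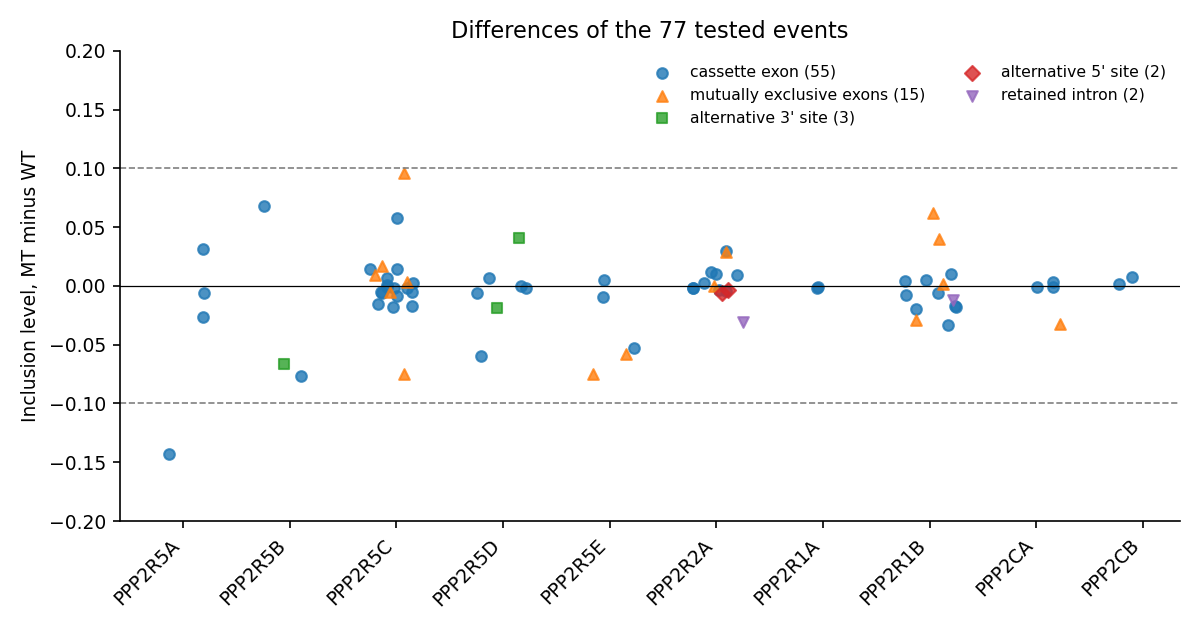
Difference in mean inclusion level (MT minus WT, fraction) of each of the 77 tested events, by gene, with the event type as the marker and dashed lines at a difference of 0.1 either way. Only the PPP2R5A 197-nt exon, at -0.14, lies outside the lines.

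PPP2R5A encodes B56α, a subunit that directs PP2A to MYC among other targets. The table listed 6 events for it, all cassette exons, of which 5 met the read minimum and 4 varied between libraries. No alternative 3′ splice site was listed for this gene, so use of an upstream AG in it was not measured. The 197-nt exon is coding, follows the first exon in the table, and has a length that is not a multiple of 3. WT libraries included it at 0.946, 0.861 and 1.00, and MT libraries at 1.00, 0.588 and 0.789. A pair of MT libraries lay below every WT library, while the remaining MT library was at 1.00, so the groups overlapped. Mean levels were 0.936 ± 0.0701 in WT and 0.792 ± 0.206 in MT (SD, n = 3), a difference of -0.14 with a 95% interval from -0.42 to 0.13 (limma adjusted p = 0.856). The authors' group means of junction reads for this exon were 65.3 for WT and 27.5 for MT, the latter over 6 listed MT values. The difference rested on single MT libraries. Without the library at 0.588 it was -0.0412 (limma adjusted p = 0.951), and without the MT library at 1.00 it was -0.25, with no overlap (limma adjusted p = 0.732).

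The 93-nt and 54-nt coding exons of PPP2R5A were close to fully included. The 93-nt exon, which had the most reads of the gene, stood at 0.982, 1.00 and 1.00 in WT and at 1.00, 0.965 and 1.00 in MT. Its difference was -0.00567 (95% interval -0.0386 to 0.0273, limma adjusted p = 0.954). The 54-nt exon was at 1.00, 0.984 and 1.00 in the WT group, and its MT levels were 1.00, 1.00 and 0.905. Both exons overlapped between the groups. Between the first exon and the 197-nt exon lie a 118-nt and a 50-nt exon, each found in 1 of the 5 annotated transcripts and in no coding sequence. The 118-nt exon was included at 0.0230 to 0.0680 in WT and 0.0430 to 0.111 in MT, and the 50-nt exon at 0 in all 6 libraries.

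**Figure D2:**
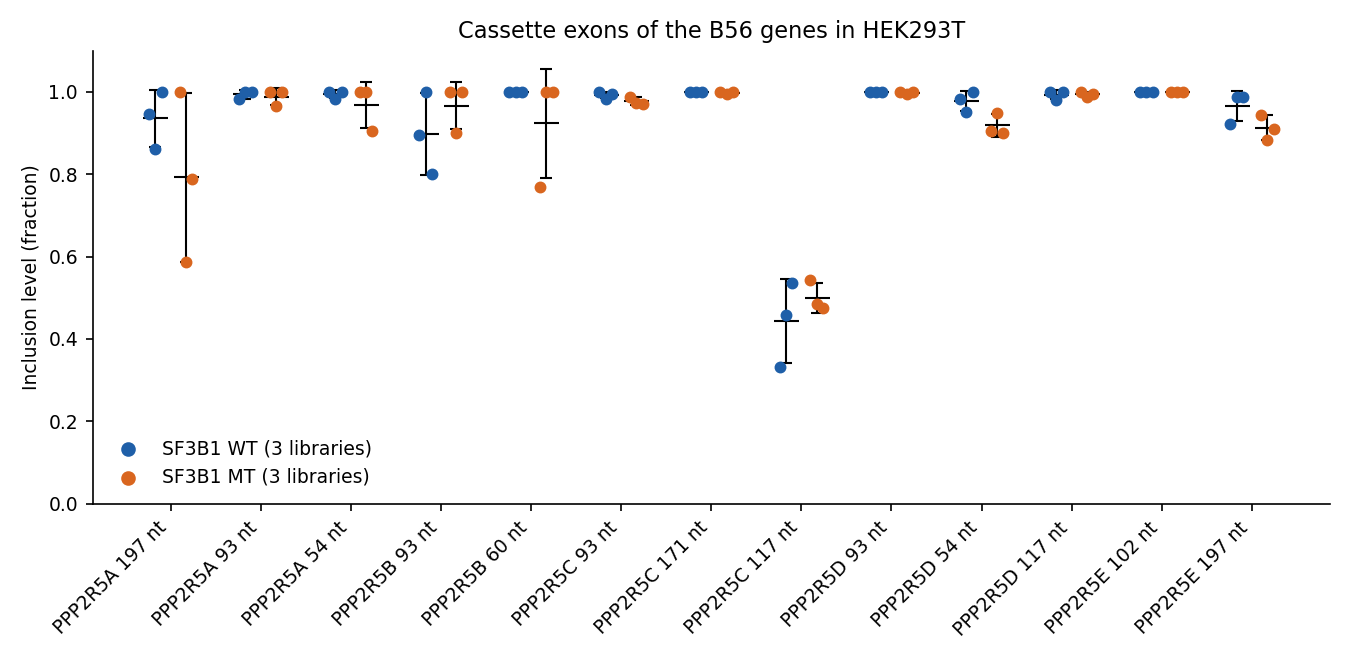
Inclusion level (fraction) of 13 cassette exons of the 5 B56 genes in each of 3 WT and 3 MT libraries (points), with the mean and SD of each group as bars. The PPP2R5C 117-nt exon lies between 0.333 and 0.542, and among the other exons the lowest library is an MT one at 0.588, for the PPP2R5A 197-nt exon.

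PPP2R5D encodes B56δ. Its 54-nt exon, a coding exon in 4 of 6 coding transcripts, had the lowest p of all member events. WT libraries stood at 0.984, 0.951 and 1.00, and MT libraries at 0.906, 0.95 and 0.90. All MT levels were below all WT levels, but the highest MT and the lowest WT library were 0.95 and 0.951. The difference was -0.0597, from 0.978 ± 0.0250 to 0.919 ± 0.0273 (SD, n = 3), with a 95% interval from -0.107 to -0.0122. The unadjusted limma p was 0.00306 and the adjusted p 0.642. PPP2R5D also held a 117-nt exon with the most reads of the gene, at 0.994 ± 0.0110 in WT and 0.994 ± 0.00656 in MT.

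Of the 3 member events listed as alternative 3′ splice sites, the 2 with sites 30 bases apart or fewer were in PPP2R5D, and their sites are shown because this is the event type in which use of an upstream AG is counted directly. PPP2R2A also holds a pair of cassette exons, of 126 and 121 nt, whose 3′ sites lie 5 bases apart, each at 0.0270 or less in every library. In each pair the first line shows the upstream site and the second the downstream site, again with 60 intron and 10 exon bases and the AG in capitals.
PPP2R5D upstream site, 17 bases apart, chr6:43006446-43006462: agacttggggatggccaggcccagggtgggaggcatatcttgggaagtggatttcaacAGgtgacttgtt
PPP2R5D downstream site: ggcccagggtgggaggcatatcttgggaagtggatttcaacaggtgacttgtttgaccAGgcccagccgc
PPP2R5D upstream site, 30 bases apart, chr6:43010634-43010663: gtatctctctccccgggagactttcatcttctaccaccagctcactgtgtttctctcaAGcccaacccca
PPP2R5D downstream site: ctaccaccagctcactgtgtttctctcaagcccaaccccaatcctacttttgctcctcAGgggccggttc

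The upstream site of the 17-base pair was used at 0.0130, 0 and 0 by WT libraries, and at 0.129, 0.00700 and 0 by MT libraries. A single MT library stood above the others, and the difference of 0.0410 had an unadjusted limma p of 0.180. For the 30-base pair the upstream site was used at 0.0180, 0.0330 and 0.0680 in WT and at 0.0370, 0.00800 and 0.0170 in MT, a difference of -0.0190 (adjusted p = 0.856, limma). The groups overlapped in both.

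PPP2R5E encodes B56ε. Its 197-nt exon, the counterpart in length of the PPP2R5A exon, was at 0.923, 0.988 and 0.987 in WT and at 0.944, 0.884 and 0.911 in MT. A WT library lay inside the MT range. The means were 0.966 ± 0.0372 and 0.913 ± 0.0301 (SD, n = 3), and the difference of -0.0530 (95% interval -0.114 to 0.00829) had an unadjusted limma p of 0.0252 and an adjusted p of 0.856. The other cassette exons of PPP2R5E, 5 in number, had levels of 0.972 or more in every library.

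Among the lengths given here, the 93-nt exons of the B56 genes did not share a direction. Both exons of the 197-nt pair and of the 54-nt pair were lower in MT. Both 117-nt exons were higher, and none of these exons passed the test. In the 197-nt pair, picked after its values were seen, the difference was -0.14 in PPP2R5A and -0.0530 in PPP2R5E, and in the 54-nt pair, picked likewise, -0.0263 in PPP2R5A and -0.0597 in PPP2R5D. The 93-nt exon differed by -0.00567 in PPP2R5A, 0.0683 in PPP2R5B, -0.0157 in PPP2R5C and -0.00167 in PPP2R5D. The 117-nt exon differed by 0.0580 in PPP2R5C, in the event against the distal downstream exon, and by 0.000330 in PPP2R5D.

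PPP2R5C encodes B56γ and had the most events, 22 tested. Its 171-nt exon had the most reads of the gene and was included at 1.00 in all WT libraries and at 1.00, 0.995 and 1.00 in MT. The one cassette exon of the gene at an intermediate level was a 117-nt coding exon near the 3′ end, chr14:101917831-101917947, counted against a distal downstream exon. It was at 0.333, 0.459 and 0.535 in WT and at 0.542, 0.485 and 0.474 in MT, a difference of 0.0580 with a 95% interval from -0.0798 to 0.196 (limma adjusted p = 0.856). The ranges of the groups overlapped. Counted against the nearer downstream exon, the same exon was at 0.956 to 1.00 in every library. Its sequence is shown because it is the cassette exon of the B56 genes that both genotypes used at a level near 0.5.
PPP2R5C 117-nt exon, plus strand, GRCh38: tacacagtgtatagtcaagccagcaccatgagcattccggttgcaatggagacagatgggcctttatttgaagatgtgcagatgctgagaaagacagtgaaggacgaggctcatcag

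In PPP2R5C the remaining differences ran from -0.0753 to 0.0957, and both extremes were mutually exclusive exon events. The pair of the 171-nt and 128-nt exons was at 0.587, 0.645 and 0.663 in WT, and MT libraries stood at 0.504, 0.541 and 0.624, 1 of them inside the WT range. The unadjusted limma p was 0.0591. A level near 0.5 in these events does not stand for skipping of either exon: counted as cassette exons, the 171-nt exon was at 0.995 or more and the 128-nt exon at 0.977 or more in every library. Mutually exclusive pairs made up 11 of the 22 member events that were neither at 0.95 or more nor at 0.05 or less in both groups.

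PPP2R5B encodes B56β and had few reads, with 18.8 to 30.9 mean junction reads in its 3 tested events. Its 60-nt exon was at 1.00 in all WT libraries and at 0.770, 1.00 and 1.00 in MT. A single MT library made the difference of -0.0767 (95% interval -0.248 to 0.0947, limma adjusted p = 0.856). The 93-nt exon went the other way, at 0.895, 1.00 and 0.800 in WT and 1.00, 0.90 and 1.00 in MT.

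In the scaffold genes no event differed by more than 0.0623. PPP2R1A encodes the main A subunit, and its 101-nt exon, at a mean of 694.3 junction reads the most deeply covered of all member events, was at 1.00 in 5 libraries and at 0.997 in 1 MT library. The 95% interval of the difference ran from -0.00539 to 0.00339. A 125-nt exon of PPP2R1A was used at 0 to 0.0120 over the 6 libraries. PPP2R1B encodes the second A subunit, and its 14 tested events differed by -0.0330 to 0.0623. A pair of mutually exclusive 233-nt and 173-nt exons, tied with the 233-nt cassette exon for the most reads of the gene (173.3), was at 0 in 5 libraries and at 0.00400 in 1 MT library. That level does not stand for absence of the 233-nt exon, whose tied cassette event was at 0.986 or more in every library. A retained intron of 378 bases near the end of PPP2R1B was at 0.0520, 0.0180 and 0.144 in WT and at 0.0460, 0.0390 and 0.0920 in MT, with overlapping groups.

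Differences in the catalytic genes ran from -0.0323 to 0.00767. PPP2CA, which encodes the main catalytic subunit, had 3 cassette exons of 162, 90 and 210 nt with levels of 0.990 or more in every library. Its 210-nt exon was at 1.00, 0.991 and 0.996 in WT and 1.00, 0.991 and 0.992 in MT, a difference of -0.00133 (95% interval -0.0111 to 0.00841). The 162-nt and 90-nt exons, counted as mutually exclusive, were at 0.381 to 0.471 in WT and 0.382 to 0.434 in MT, although each was almost always included when counted alone. PPP2CB, which encodes the second catalytic subunit, had a 210-nt exon of the same size at 0.986 to 1.00 in WT and 0.990 to 1.00 in MT.

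PPP2R2A, the B55 gene on chromosome 8, held both member events in which all MT levels exceeded all WT levels. A 71-nt exon, found in 6 of 28 annotated transcripts, was at 0.0890, 0.107 and 0.0530 in WT and at 0.109, 0.122 and 0.108 in MT. The gap between the groups was that from 0.107 to 0.108. The difference in means was 0.0300, with a 95% interval from -0.00755 to 0.0676 and an unadjusted limma p of 0.289. A 98-nt exon was at 0.982, 0.990 and 0.981 in WT and at 0.993, 1.00 and 0.991 in MT, a difference of 0.0103 (limma adjusted p = 0.856). The most covered event of the gene, mutually exclusive exons of 166 and 113 nt, averaged 0.440 ± 0.0479 in WT and 0.440 ± 0.0521 in MT. An alternative 5′ splice site that adds 120 bases to an upstream exon was used at 0.05 to 0.0780 in WT and 0.0450 to 0.0960 in MT. A retained intron of 872 bases was at 0.0390, 0.0140 and 0.0840 in WT and at 0.0210, 0.00700 and 0.0160 in MT. The highest MT library for this intron lay above the lowest WT library.

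Member events were near full inclusion at about the share of all events, and more often at 0.05 or less. Of the 87 events, 49 (56.3%) had mean levels of 0.95 or more in both groups and 16 (18.4%) of 0.05 or less, beside 54.2% and 8.93% of all events. Among cassette exons 45 of 64 were near full inclusion (70.3%), beside 69.4% of all cassette exons.

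Junction reads of PPP2R5A were lower in MT at every event, whereas the medians of the other 9 genes lay between -0.07 and 0.31 as log2 of MT over WT. The authors' group means of junction reads per event, which are not scaled for library depth, were compared as log2 of MT over WT. No library values were used for these means, so there is no error between libraries and no test. For MT the mean covers 6 values an event, so it reaches beyond the 3 labelled MT libraries. Only 3 of the 6 have an inclusion level column, and whether those are the labelled libraries could not be checked. The median over all 94061 events was 0.02 on the log2 scale.

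At the 197-nt exon of PPP2R5A, the 65.3 mean reads of WT and 27.5 of MT gave a log2 ratio of -1.25 with a 95% counting interval from -1.56 to -0.94. The 93-nt exon had 120.3 reads in WT and 46.3 in MT, a log2 ratio of -1.38 (-1.61 to -1.15). The 54-nt exon had 67.3 and 36.5 reads, a log2 ratio of -0.88 (-1.17 to -0.60). All 3 intervals lay below 0. The 118-nt exon event, with 25 and 10.8 reads, and the 50-nt exon event, with 22.7 and 9.83 reads, had log2 ratios of -1.21 and -1.20. At levels near 0, both consist mostly of reads that join the first exon to the 197-nt exon. The event of the 197-nt exon counts that junction too, so these events share reads and are not independent. The 50-nt exon event was below 10 reads in MT and met the minimum, set on the mean of both groups, through WT. The event under the read minimum had 11.7 and 7.83 reads, and its interval reached above 0 (-1.24 to 0.10). The intervals are exact binomial ones on the summed reads and cover counting error only. Lower junction reads cannot be told apart here into less RNA of the gene and fewer cells that express it. The number of clones behind a genotype is not given, so genotype cannot be told apart from a difference between clones. The MT means also cover values beyond the labelled MT libraries.

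**Figure D3:**
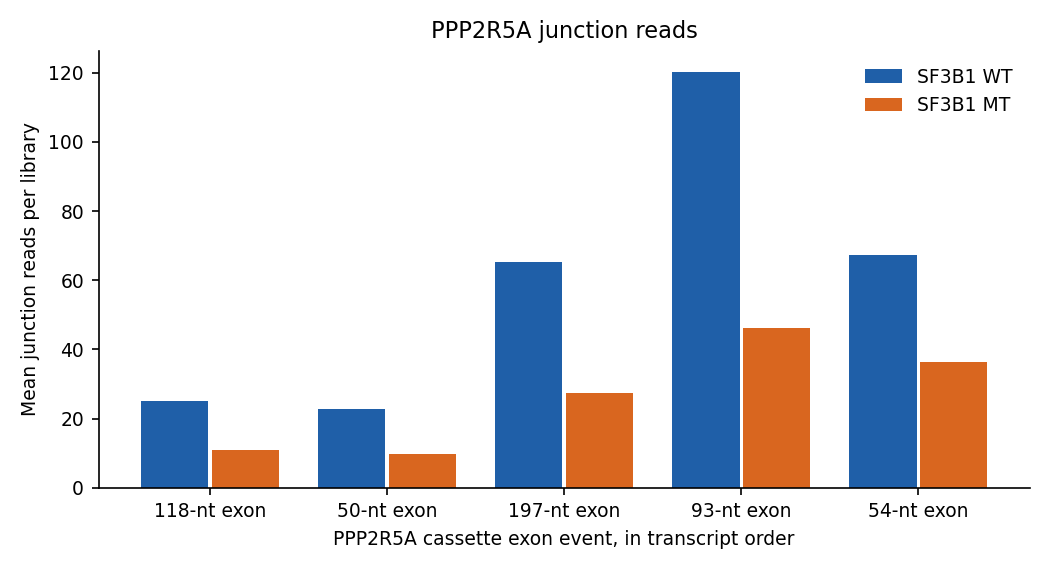
Mean junction reads of the 5 PPP2R5A cassette exon events that met the read minimum, in transcript order, as the authors' means for WT and MT. The MT mean covers 6 listed values, of which only 3 have an inclusion level. No error is drawn because none can be had from the means. MT is lower at each event, from 9.83 to 46.3 reads against 22.7 to 120.3 in WT.

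The median log2 ratio of PPP2R5A, which fell on the 118-nt exon event, was -1.21, an MT level 0.433 times that of WT. Over the 4 events with at least 10 reads in each group, without the 50-nt exon event, it was -1.23. Of 7996 genes with at least 3 events, 19 (0.238%) had a median of -1 or lower, and PPP2R5A was the 11th lowest. It was the single one of the 10 members below -1. The other B56 genes had medians of 0.31 (PPP2R5B), 0.07 (PPP2R5C), 0.27 (PPP2R5D) and 0.11 (PPP2R5E). The scaffold genes stood at -0.07 (PPP2R1A) and 0.03 (PPP2R1B), the catalytic genes at 0.04 (PPP2CA) and 0.24 (PPP2CB), and PPP2R2A at 0.13. These 9 genes lay between the 5th and 95th percentiles of all genes, -0.37 and 0.46.

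**Figure D4:**
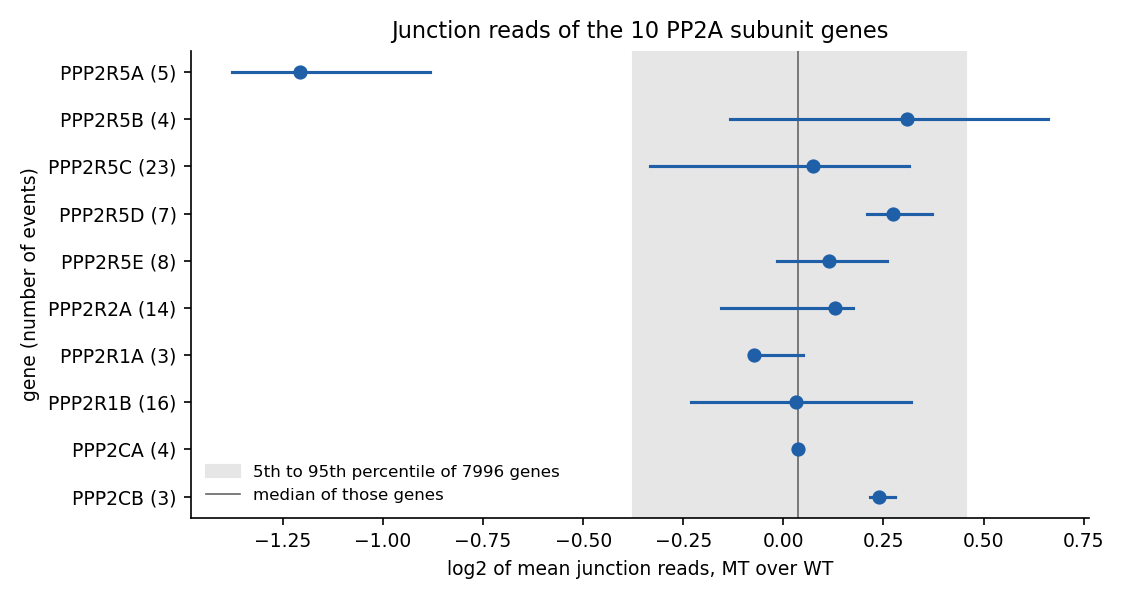
Log2 ratio of mean junction reads, MT over WT, for each of the 10 genes, as the median over its events (point) and the range from the lowest to the highest event (line), with the number of events in parentheses. The grey band spans the 5th to 95th percentiles of the medians of 7996 genes, -0.37 to 0.46, and the whole range of PPP2R5A, -1.38 to -0.88, lies below it.

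Other genes of the PP2A system had no called event either. The list held other regulatory subunits (65 events tested), regulators of PP2A (93), partners of B56 at centromere and kinetochore (43) and the related catalytic subunits PPP4C and PPP6C (32). Of these 233 events, 0 were called by limma, beside 0.0311% of all events, and 5 had an unadjusted p below 0.05 (2.15%), beside 4.47%. A difference above 0.1 was present in 6 (2.58%), beside 5.8%. WT and MT libraries did not overlap in 13 (5.58%), beside 5.46%, with 7 of them higher and 6 lower in MT. The median absolute difference was 0.0113.

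The following events were chosen from those counted above after their values were seen, and the rest are given as counts only. In KNL1, the kinetochore scaffold, a pair of mutually exclusive exons was at 0.412, 0.432 and 0.542 in WT and at 0.554, 0.549 and 0.634 in MT. All MT libraries were higher, by 0.117 in the mean (limma adjusted p = 0.856). It was the one event of the 233 without overlap and with a difference above 0.1, a share of 0.429% beside 1.73% of all events. In STRN3, a striatin-type regulatory subunit, a cassette exon was at 0.964, 0.841 and 0.977 in WT and at 0.910, 0.787 and 0.781 in MT. The groups overlapped, and the adjusted p was 0.856 by limma. In SGO1, the shugoshin that recruits B56 to centromeres, a cassette exon was at 1.00 in all WT libraries and at 0.875, 1.00 and 0.714 in MT. Its mean reads were 15.0 in WT and 14.7 in MT, the latter over 6 listed MT values. Median log2 ratios of junction reads over these other genes ran from -0.18 in TIPRL, with 1 event, to 0.42 in KNL1, with 27.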

How the data were processed

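RNA was sequenced as stranded paired-end libraries, and the authors ran rMATS on junction reads; the labels name GRCh38. The deposited table gives inclusion levels per library as fractions, and the authors' mean junction reads per event and group as a signal that is not scaled for depth. Depth per library was not used here. Another 6 columns hold lists per sample that could not be matched to the labelled samples and were not used, and the junction counts in some of them are run together. The columns of the authors' own comparison (p-values, FDR, differences) and the DRIP-Seq peaks of Nalm-6 cells were not used.

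Inclusion levels were tested with limma 3.58.1 (R 4.3.3) after an arcsine square-root transform, with the variance following mean reads, after events with a missing or constant level or under 10 reads were removed. P-values were adjusted by Benjamini-Hochberg over 83581 events, two-sided. The 95% intervals of differences came from the untransformed limma fit. The script was checked on simulated data. With 3 libraries against 3, an exact permutation test cannot go below 0.1. The named events were called events, uncalled events with unadjusted p below 0.05, a difference above 0.1 and no overlap, the tested event with the most reads in each gene, alternative 3′ sites of PPP2R5A and called events of the other PP2A genes. By this rule 10 events were named, all for their reads; the others given were chosen after their values were seen. The genes and lists were chosen with earlier results of these data known. Starts in the table count from 0 and are printed counting from 1. Exons were matched to GENCODE release 44. Alternatives covered the transform, the variance trend, the read minimum, constant events, the adjustment and each library left out.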

Additional observations from a re-analysis of the deposited data

How the results depend on the processing

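The count of called member events was 0 under all 13 alternatives run, and so was that of the other PP2A genes, while the calls over all events went from 0 (no transform, or no variance trend) to 37 (constant events kept). At an unadjusted limma p below 0.05 there were 0 to 5 member events. Member events without overlap and with a difference above 0.1 numbered 0 with the stricter or no read minimum, and 0 to 2 with 1 library left out (0 to 2.82% of member events, beside 3.06% to 4.49% of all events; in each case the share was below that of all events). MT libraries are numbered here by the order of their columns, as names only. The 2 came without MT replicate 1 (the PPP2R5A 197-nt exon, -0.25, and the PPP2R5B alternative 3′ site, -0.11). Without WT replicate 2 it was the PPP2R5B 93-nt exon (0.12), without WT replicate 3 the PPP2R5C 117-nt exon (0.10), without MT replicate 2 the PPP2R5E pair of the 102-nt and 197-nt exons (-0.11), and without MT replicate 3 the PPP2R5C pair of the 171-nt and 128-nt exons (-0.11). The cause was not tested. The difference at the PPP2R5A 197-nt exon ranged from -0.25 to -0.04 with 1 library left out, at the PPP2R5D 54-nt exon from -0.0753 to -0.0488 and at the PPP2R5E 197-nt exon from -0.0745 to -0.0385.

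Differences near 0 changed sign when a library was left out: the PPP2R2A 166-nt and 113-nt pair (-0.0270 to 0.0252 over the libraries left out, with 0.0252 without WT replicate 1, 0.001 without MT replicate 1, 0.0250 without MT replicate 2), the PPP2CA 210-nt exon (-0.00417 to 0.000830, with 0.000830 and 0.000330 without WT replicate 1 and MT replicate 2), the PPP2CB 210-nt exon (-0.00333 to 0.00467, with -0.00333 without WT replicate 2, -0.000330 without MT replicate 1 or 2), the PPP2R5D 117-nt exon (-0.00600 to 0.00383, with -0.00600, -0.00267 and -0.000170 without WT replicate 2, MT replicate 1 and MT replicate 3) and the PPP2R5A 93-nt exon (-0.0117 to 0.00600, with 0.00600 without MT replicate 2). The PPP2R5A read ratio, under alternatives chosen after seeing the data, was -1.21 with no read minimum, -1.25 with at least 20 reads, -1.23 with at least 10 reads in both groups, -1.20 with reads summed over events and -1.23 relative to the median of all events. No paired analysis was possible because the MT columns could not be matched to the replicate numbers in the labels. Events with few reads give coarse levels, and PPP2R5A and PPP2R5B had the lowest median reads in MT.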
